A study of Mus musculus with 16 samples.

Results

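Hepatokines are proteins that the liver secretes and that act on other organs, and 10 of them with described actions on bone or metabolism were followed here: Fgf21, Gdf15, Ahsg, Fetub, Lect2, Rbp4, Selenop, Tsku, Fgl1 and Gpld1. They were chosen by name, as the rows carrying these gene symbols, with earlier results of these data known. All 10 were present among the 15544 rows of the liver table. All 10 also passed a filter on low values (1 or more in at least 4 libraries), which left 12704 genes to test. Hepatokines are made mainly by hepatocytes and reach bone, fat, muscle and brain through the blood, so their liver transcripts are a natural place to look for a circulating signal. Fgf21 and Gdf15 report nutrient and cell stress, the fetuins Ahsg and Fetub belong to the cystatin family, Rbp4 and Selenop carry retinol and selenium to other tissues, and Lect2, Fgl1, Tsku and Gpld1 are linked to immune cells, lipid metabolism or the release of anchored proteins.

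Liver RNA was sequenced from 16 female mice aged 27 weeks, 4 in each of 4 groups, with 1 library per mouse. Controls (Esr1 fl/fl) carried a floxed gene for oestrogen receptor alpha, and mutants (Esr1 Nkx2.1-cre) carried in addition a Cre recombinase under Nkx2.1, so all 4 groups shared the floxed allele and a mixed CD-1 and 129P2 background. Both genotypes were kept on standard breeder chow or on 17 weeks of high-fat feeding (HFD). The liver was profiled as a possible source of a secreted bone factor, and the pattern sought was a level higher in mutants than in controls on chow and lower in mutants on HFD than in mutants on chow. Nkx2.1 drives Cre in the hypothalamus and in other tissues such as thyroid and lung, and not in hepatocytes, so liver Esr1 does not check the genotype labels. Esr1 was present in every library, at 6.14 to 22.9.

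Values are TPM, a read abundance per transcript length, adjusted between libraries by size factors (adjusted TPM), so levels of different genes can be compared. Column totals ranged from 905897 to 1119700, and sequencing depth is unknown. Differences are log2 fold changes on the log2(value + 1) scale from limma, with p-values adjusted over all 12704 genes and called under 0.05, and the exact permutation tests below are two-sided and cannot go under p = 0.0286 with 4 mice against 4. The 8 hepatocyte markers were present in every library, with Alb between 36044 and 79775. Fewer cells of a type and less RNA per cell cannot be told apart in bulk tissue.

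Some libraries stood apart before any hepatokine was considered. The summed level of 24 genes that rise in the acute-phase response was 145116 in Mutant_Chow replicate 2, 31432 in Control_HFD replicate 1 and 27314 in Mutant_Chow replicate 1, against 12172 to 17896 in the other 13 libraries. The summed level of the neutrophil markers (5 of 6 with a row) was 5763 and 2649 in Mutant_Chow replicates 2 and 1 and at most 134 elsewhere, including 6.35 in Control_HFD replicate 1. Elane, which defines neutrophil precursors, was listed at 0 in 1 control library on chow and in 3 control and 1 mutant libraries on HFD. Kupffer cell markers, all 7 with a row, were also highest in Mutant_Chow replicates 2 and 1, at 746 and 664 against 162 to 531 in the others. The numbers in the library titles form 4 series, each within 1 diet, whose meaning the labels do not give. On HFD, Mutant_HFD replicate 1 stood with 3 controls in series 1, and Control_HFD replicate 4 stood with 3 mutants in series 4. Both were used as labelled, and whether their labels were exchanged was not tested. Genotype on HFD, the diet differences in both genotypes and the interaction of genotype with diet all depend on these labels. Without both libraries, genes called went from 2 to 2694 for genotype on HFD and from 0 to 1897 for diet in controls. They went from 0 to 3 for diet in mutants and from 0 to 921 for the interaction. No title series held libraries of both diets, so the part of title series in any diet difference was not tested. Replicates were numbered in sample order within a group and are not paired across groups.

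No hepatokine passed the adjusted threshold in any of the 5 comparisons. These set mutants against controls on each diet, set HFD against chow within each genotype, and tested the interaction of genotype with diet. Calls were rare among all genes as well. Between genotypes limma called 0.0236% of genes on chow (3 genes) and 0.0157% on HFD (2 genes). Between diets it called 0% in controls and 0% in mutants, with 1641 and 872 genes at unadjusted p under 0.05, and the interaction gave 0% with 535 such genes. At unadjusted p under 0.05, Fetub and Fgl1 were higher in mutants on chow, which is 2 of 10 hepatokines against 6.08% of all genes in either direction and 4.23% higher. None reached that level for genotype on HFD, against 8.6% of genes. Rbp4 alone reached it for diet in controls, being higher on HFD, against 12.9% of genes and 6.4% higher. Fetub alone reached it for the interaction, with a negative estimate, against 4.21% of genes and 2.42% with that sign. For diet in mutants 4 of 10 reached it, with Lect2, Rbp4 and Tsku higher and Fetub lower on HFD, against 6.86% of genes, 2.71% higher and 4.16% lower. The median difference over the 10 hepatokines was 0.05 for genotype on chow and 0.25 for diet in mutants, beside 0.02 and -0.01 over all genes. Since the 10 were chosen with earlier results of these data known, these shares and medians are descriptions and no test of an excess.

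**Figure D1:**
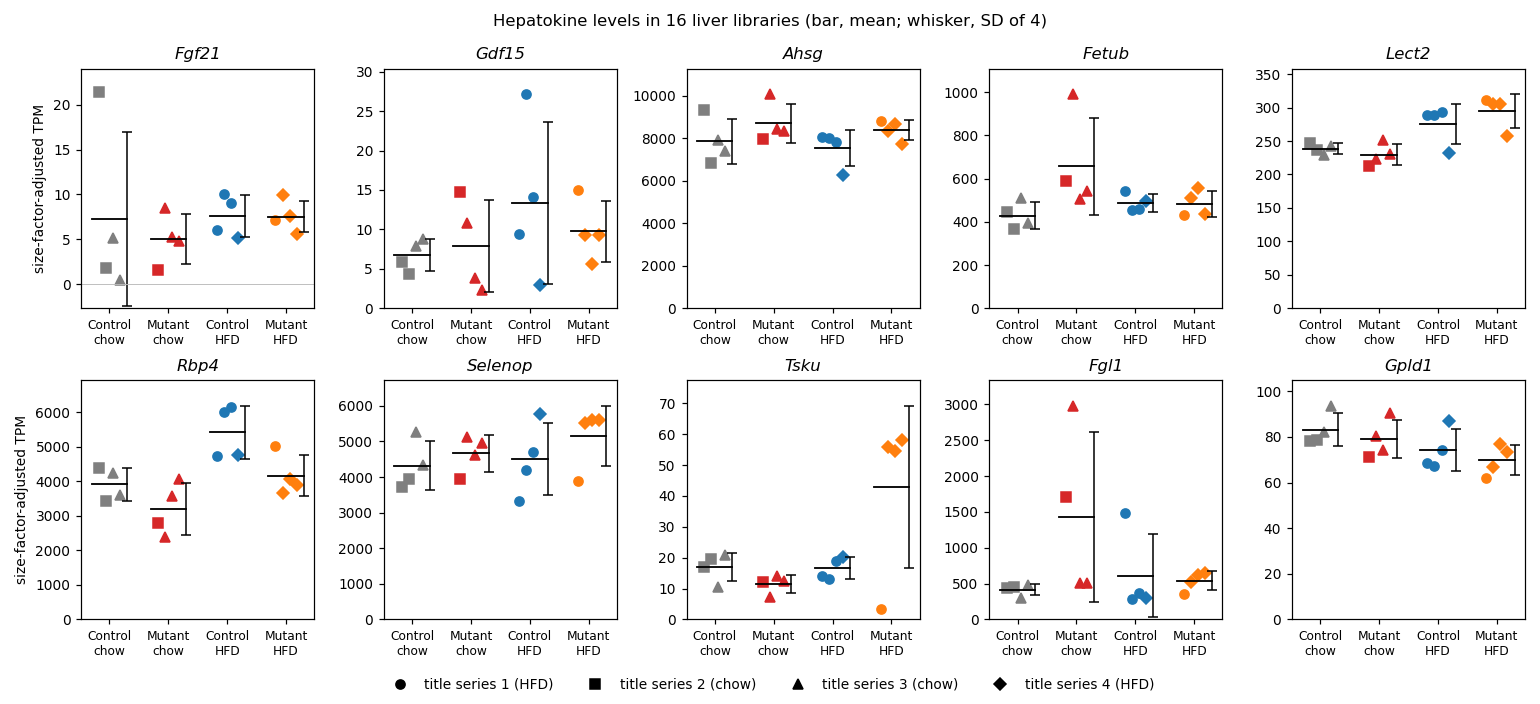
Level of each hepatokine (adjusted TPM, linear axes, from 0 except for Fgf21, where a whisker reaches below 0) in the 4 groups. Each point is 1 mouse, its shape gives the title series, the horizontal line is the mean and the whisker the SD of 4. The 3 high Tsku points in mutants on HFD (54.4 to 58.0) and the high Fgl1 points (1483 to 2983) stand apart from the rest.

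The pattern sought was present by sign in 3 of 10 hepatokines, Ahsg, Fetub and Fgl1, while 37.5% of all tested genes (4763) showed it. Both comparisons in the pattern use the same mutant chow libraries, so a high value there raises one and lowers the other. Fetub alone had unadjusted p under 0.05 in both comparisons, as did 1.25% of genes (159), and 0 genes passed the adjusted threshold in both. Fetub kept this in 12 of 28 alternative settings, Fgl1 had it in 3 (in 1 of them without Fetub), and no hepatokine had it in 15, among them library weights and the omission of Mutant_Chow replicate 1 or 2. Being above controls on chow and also below controls on HFD was seen, by the sign of the log2 estimates, for Fetub only, against 23.5% of genes. By group means it was seen for 3 hepatokines, Gdf15, Fetub and Fgl1. The share of all genes by that rule was not computed, so this count has no background. Without the 3 libraries highest in acute-phase genes, the pattern by sign was left in Ahsg and Fetub, against 34.6% of all genes. Without Mutant_Chow replicate 2 alone it was left in Fetub and Fgl1, against 35.2%. In the order of the 4 group means, none of the 30 pairs of neighbours (3 for each hepatokine) passed the adjusted threshold in limma, and none had an unadjusted p under 0.05. The order was taken from the same means, so neighbours are the closest groups. Their comparison cannot show that groups further apart do not differ.

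**Figure D2:**
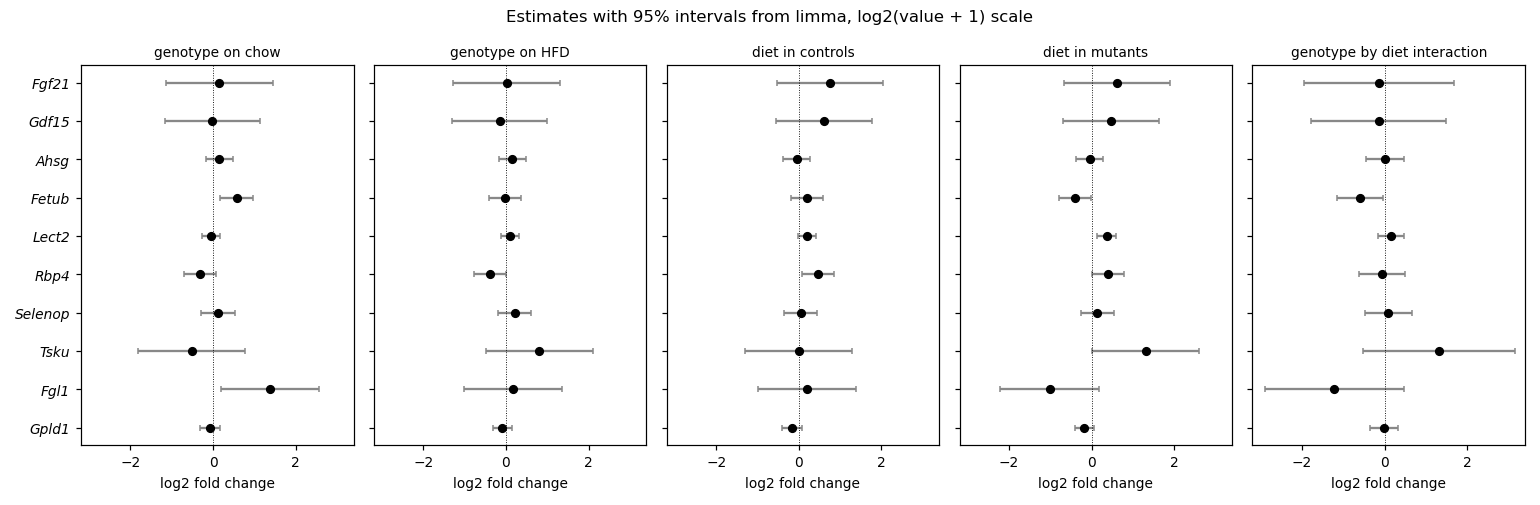
Log2 fold changes of the 10 hepatokines in the 5 comparisons (log2(value + 1) scale), with 95% intervals from limma. Intervals of Fgf21, Gdf15, Tsku and Fgl1 are wide, those of Ahsg, Lect2 and Gpld1 narrow, and the intervals for Fetub and Fgl1 on chow lie above 0 before adjustment.

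Fgf21, a fibroblast growth factor that signals through FGF receptors with beta-klotho and is released in fasting and amino acid shortage, was the least abundant of the 10. The gene lies at chr7:45613886-45615490 on the minus strand (GRCm38, GENCODE M21), and its mean level ranked 7725 of 15544. The 250 bases before its RefSeq start site (GRCm38.p6, chr7:45615491-45615740, minus strand) are shown because they hold a composite site of ATF4 and C/EBP, of the stress response described below. That site and an E box are in capitals.

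Fgf21: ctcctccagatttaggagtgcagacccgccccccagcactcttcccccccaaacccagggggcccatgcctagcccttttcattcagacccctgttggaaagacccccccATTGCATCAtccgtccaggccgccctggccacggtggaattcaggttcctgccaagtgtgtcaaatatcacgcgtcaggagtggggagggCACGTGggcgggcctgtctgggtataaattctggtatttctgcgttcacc

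The first capitals are the reverse strand of TGATGCAAT, a composite site of ATF4 and C/EBP, at bases -140 to -132, and the second are the E box CACGTG at -50 to -45. With both strands searched and no overlap between the motifs, TGATGCAAT stood in 0.16% of 32536 promoter windows of 250 bases (52 windows) and CACGTG in 6.04%. Gdf15 also held CACGTG, at -83 to -78, and no TGATGCAAT. These matches are letters only and show no binding.

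In controls on chow Fgf21 stood at 21.5, 1.81, 5.18 and 0.508, and in mutants on chow at 1.63, 8.46, 5.31 and 4.78. On HFD the controls stood at 6.08, 10.001, 9.05 and 5.10 and the mutants at 7.17, 9.88, 7.54 and 5.56. The highest and the lowest of the 16 values were both in controls on chow, and the HFD groups lay inside that range. The differences between genotypes were 0.16 (SE 0.60) on chow and 0.02 on HFD, and those between diets were 0.75 in controls and 0.61 in mutants, with adjusted p between 0.609 and 0.9995 in limma. On chow the mean was lower in mutants (5.04 against 7.24 in controls) while the log2 estimate was above 0, with 21.5 in Control_Chow replicate 1. Its 95% interval on chow ran from -1.13 to 1.44. Leaving out Control_Chow replicate 1 moved the chow difference to 0.88, and leaving out replicate 4 moved it to -0.41.

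Gdf15, a stress-induced cytokine of the TGF-beta family that lowers food intake through the brainstem receptor GFRAL, was also scarce and variable. It lies at chr8:70629393-70632456 on the minus strand. Control livers on chow held 5.81, 4.28, 7.90 and 8.81 and mutant livers 14.8, 10.8, 3.86 and 2.35. On HFD controls held 9.36, 27.1, 14.05 and 2.89, and mutants held 14.9, 9.26, 5.58 and 9.30. Mutants on chow lay on both sides of the controls, and the groups overlapped in every comparison. HFD differences were 0.61 (SE 0.54) in controls and 0.47 (SE 0.54) in mutants, with limma adjusted p of 0.651 and 0.920. Leaving out 1 library moved the first between 0.18 (without Control_HFD replicate 2) and 1.13 (without replicate 4), and the second between 0.087 and 0.83 (without Mutant_Chow replicates 4 and 1). Within title series the genotype difference had no single sign: on chow it was 1.39 in series 2 and -0.70 in series 3, and on HFD it was -0.04 in series 1 and 1.19 in series 4, where the only control held 2.89.

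The residual SD within groups of Fgf21 (0.96 on the log2 scale) and Gdf15 (0.86) stood at the 98.4th and 97.8th percentile of all tested genes, whose median was 0.26. The stress and fasting inputs of both hormones were followed as lists. Of 21 genes of the integrated stress response, through which amino acid shortage acts on Fgf21 and Gdf15, 17 were tested and none passed the adjusted threshold in any comparison, while 2 were higher in mutants on chow at unadjusted p under 0.05, against 4.23% of all genes. Psat1, a serine synthesis enzyme, had the smallest p on chow (0.77, SE 0.35, limma adjusted p = 0.806). Trib3, a pseudokinase induced by ATF4, had it for genotype on HFD (-0.91, adjusted p = 0.560) and for diet in mutants (-0.76, adjusted p = 0.733). Chac1, which breaks down glutathione, had it for diet in controls (1.08, limma adjusted p = 0.299) and for the interaction (-1.74, adjusted p = 0.895), with group means from 1.66 in controls on chow to 4.75 in controls on HFD.

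A list of 19 genes held PPAR alpha, the fasting receptor that drives Fgf21, and its targets. The estimate was below 0 in 15 for genotype on chow and above 0 in 15 for diet in mutants. The medians were -0.21 and 0.26, beside 0.02 and -0.01 over all genes, whose share with each sign is not given. At unadjusted p under 0.05 in limma, 3 of the 19 were lower on chow, against 6.08% of all genes in either direction. For diet in mutants 1 was higher, against 2.71%. None passed the adjusted threshold. Cyp4a14, a fatty acid hydroxylase, averaged 397 ± 168 in controls and 147 ± 165 in mutants on chow, and 305 ± 99.7 and 220 ± 65.8 on HFD (SD, n = 4). The Cyp4a14 differences were -3.39 (SE 1.15) for genotype on chow and 2.61 for diet in mutants, with limma adjusted p of 0.729 and 0.722. The groups overlapped in both. On chow the estimate is a 0.095-fold level, further from 1 than the ratio of the means, since low values weigh more on the log2 scale. Both comparisons of this list use the same mutant chow libraries, among them replicates 1 and 2 with high acute-phase levels. Ppargc1a, a coactivator of oxidative metabolism, had the smallest p of the list for genotype on HFD (0.48, adjusted p = 0.575) and for the interaction (0.67, adjusted p = 0.895), and Acadvl, an enzyme of fatty acid oxidation, for diet in controls (0.40, limma adjusted p = 0.340).

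Ahsg, or fetuin-A, binds calcium phosphate in plasma and keeps soft tissue from calcifying, and it was the most abundant of the 10, with a mean level that ranked 15 of 15544. Fetub, or fetuin-B, inhibits a protease that hardens the egg coat, and ranked 258. The genes are neighbours on the plus strand of chromosome 16, Ahsg at chr16:22891277-22899449 and Fetub at chr16:22918334-22939778, with 18884 bases between them. An annotated antisense gene, Gm30505, overlaps Ahsg and has no row in the table. The pair is shown by the longest run that both promoters share in the 250 bases before their RefSeq start sites, in capitals within 30 bases of each (GRCm38.p6, chr16:22891926-22891955 and chr16:22918330-22918359, plus strand).

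Ahsg: ccagagctgCTGTTTGCAAGgattatttgg
Fetub: tggcgcactCTGTTTGCAAGatataaaagg

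The shared 11 bases CTGTTTGCAAG stood at -80 to -70 in Ahsg and -43 to -33 in Fetub, and in 13 of 32536 windows in all (0.04%). Their core TTTGCAA stood in 3.07% of windows, also in that of Selenop, and the TATA letters TATAAA that follow in Fetub stood in 12.3%. Both windows lie before the RefSeq start sites, which are inside the longer GENCODE gene spans given above. Of the 30 Fetub bases shown, 26 are annotated as untranslated region in GENCODE. The run of 11 bases was picked because both promoters hold it, so its rarity does not show that sharing it is unusual. Of the 10 hepatokines, 9 had a promoter row, and Fgl1 had none.

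Ahsg levels in controls on chow were 9310, 6831, 7891 and 7373, and in mutants on chow 7983, 10066, 8425 and 8323. On HFD they were 8053, 8015, 7802 and 6285 in controls and 8803, 8336, 8648 and 7712 in mutants. Mutant means were above control means on both diets, and the groups overlapped on both. The differences were 0.15 on chow and 0.16 on HFD (SE 0.15 each, limma adjusted p = 0.978 and 0.731), and the diet differences were -0.06 in controls and -0.05 in mutants. The 95% interval of diet in mutants, -0.38 to 0.28, covered changes of about that size either way.

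Fetub differed more between the groups than Ahsg did. Controls on chow held 447, 367, 510 and 393, and mutants on chow held 587, 991, 507 and 542. On HFD controls held 543, 456, 457 and 497 and mutants held 430, 511, 555 and 435. Mutants on chow were the highest group, with Mutant_Chow replicate 2 far above its 3 companions and replicate 3 just inside the control range. The difference for genotype on chow was 0.57 (SE 0.18), a 1.48-fold higher level, with a limma adjusted p of 0.678 and an exact permutation p of 0.0571. Diet in mutants gave -0.40 (SE 0.18, limma adjusted p = 0.723, exact p = 0.143), and the interaction gave -0.59 (SE 0.26, adjusted p = 0.895). Without Mutant_Chow replicate 2 alone these were 0.35, -0.18 and -0.38, in the order chow, diet and interaction. On HFD the genotypes differed by -0.02, with an interval from -0.41 to 0.37. Within chow, both title series gave a higher mean in mutants, by 0.53 in each. Series 2 held 1 mutant, Mutant_Chow replicate 1, and series 3 held replicate 2. Both of these libraries had high acute-phase levels.

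Lect2, a chemotactic protein of leukocytes that hepatocytes secrete and that is linked to insulin resistance, had the smallest spread of the 10, at the 4.27th percentile of tested genes. It lies at chr13:56542464-56548502 on the minus strand. Chow values were 247, 237, 229 and 242 in controls and 213, 224, 252 and 230 in mutants. HFD values were 290, 289, 294 and 231.6 in controls and 311, 305, 306 and 257 in mutants. All 4 mutants on HFD were above all 4 mutants on chow, whereas in controls 1 of the 4 HFD livers, replicate 4, lay among the chow values. Diet in mutants gave 0.36 (SE 0.10), a 1.28-fold higher level, with a limma adjusted p of 0.582 and an exact permutation p of 0.0286, the smallest this design allows. Lect2 was the only hepatokine without overlap in that comparison, against 3.53% of all genes (1.67% higher). The HFD and chow livers came from different title series, whose part in the Lect2 diet differences was not tested. Diet in controls gave 0.20 (SE 0.10, limma adjusted p = 0.424), and the diet differences of the genotypes were not told apart by the interaction, at 0.16 (SE 0.15, adjusted p = 0.895). Without Mutant_HFD replicate 1 and Control_HFD replicate 4, diet in controls gave 0.28 with a limma adjusted p of 0.0414, and with library weights it gave 0.27 (adjusted p = 0.0359), in fits where 1897 and 2264 genes passed.

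Rbp4 carries retinol from liver to tissues and ranked 29 of 15544 by mean level. It lies at chr19:38116629-38125281 on the minus strand. Chow livers held 4388, 3414, 4228 and 3596 in controls and 2782, 2391, 3570 and 4057 in mutants. HFD livers held 4722, 6014, 6152 and 4753 in controls and 5007, 3653, 4078 and 3902 in mutants. Controls on HFD lay above all controls on chow, and mutants on HFD lay above 3 of the 4 mutants on chow and within the span of the controls of both diets. The difference for diet in controls was 0.47 (SE 0.18), a 1.38-fold higher level, with a limma adjusted p of 0.314 and an exact permutation p of 0.0286. Rbp4 was the only hepatokine without overlap in that comparison, against 6.36% of all genes (3.38% higher). Without Mutant_HFD replicate 1 and Control_HFD replicate 4 the Rbp4 difference for diet in controls was 0.53 (limma adjusted p = 0.0683). As for Lect2, the part of title series in the Rbp4 diet differences was not tested.

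In mutants the diet difference of Rbp4 was 0.40 (SE 0.18, limma adjusted p = 0.723). Mutant means were below control means by a difference of -0.31 on chow and -0.38 on HFD (limma adjusted p = 0.864 and 0.577, exact p = 0.171 and 0.0857), which is opposite to the sought pattern on chow. Within title series the mutant mean was lower in all 4, from -0.16 in series 1 to -0.48 in series 2. Series 1 and 2 held 1 mutant each, Mutant_HFD replicate 1 and Mutant_Chow replicate 1, and series 4 held 1 control, Control_HFD replicate 4. With library weights the HFD difference was -0.54 and passed (limma adjusted p = 0.00909), in a fit where 3926 genes passed, and diet in controls was 0.55 (adjusted p = 0.0192) in a fit where 2264 passed. The 2 lowest Rbp4 values were in the mutant chow libraries with the highest acute-phase and neutrophil levels, and without the 3 highest acute-phase libraries the chow difference was -0.03 and diet in mutants was 0.12.

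Of 17 genes that bind, store or convert retinol, 14 were tested and none passed the adjusted threshold. Aldh1a1, a retinaldehyde dehydrogenase, averaged 726 ± 135 in controls and 420 ± 198 in mutants on chow (-0.91, SE 0.32, limma adjusted p = 0.763). The related Aldh1a7 was at 49.1 ± 9.83 in controls and 119 ± 58.6 in mutants on HFD (1.08, adjusted p = 0.527). Dgat1, which esterifies fat and retinol, had the smallest p for diet in controls (0.50, limma adjusted p = 0.212), and Cyp26b1, which degrades retinoic acid, for the interaction (-1.37, adjusted p = 0.895).

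Selenop, the selenium carrier that LRP8 and LRP2 take up in other organs, ranked 25 of 15544 by mean level. It lies at chr15:3268547-3280508 on the plus strand and overlaps Ccdc152 on the other strand, so reads of the pair may be shared. Chow values were 3729, 3942, 5278 and 4348 in controls and 3946, 5124, 4632 and 4960 in mutants. HFD values were 3330, 4205, 4699 and 5763 in controls and 3881, 5530, 5606 and 5613 in mutants. Mutants on HFD of replicates 2, 3 and 4 sat close together and high, with replicate 1 below them, and the only control that reached them was replicate 4 of the same title series. Within title series the genotypes were within 0.06 of each other on the log2 scale, at -0.06 in series 1, -0.05 in series 4, 0.04 in series 2 and 0.03 in series 3. Series 1 and 2 held 1 mutant each, and series 4 held 1 control. The differences over whole groups were 0.12 for genotype on chow and 0.21 for genotype on HFD (SE 0.19 each, limma adjusted p = 0.996 and 0.712), and library weights moved the second to 0.37 (adjusted p = 0.0487) in a fit where 3926 genes passed. With title series as a term it was -0.051, and leaving out 1 library gave 0.073 (without Control_HFD replicate 1) to 0.34 (without Mutant_HFD replicate 1).

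All 19 genes of selenoprotein synthesis and other selenoproteins were tested, with none past the adjusted threshold and 6 higher against 1 lower at unadjusted p under 0.05 for diet in controls, where 12.9% of all genes reached it and 6.4% were higher. Msrb1, a methionine sulphoxide reductase, averaged 429 ± 29.98 in controls and 483 ± 42.1 in mutants on chow, and 643 ± 85.7 and 506 ± 37.7 on HFD. The Msrb1 diet difference in controls was 0.58 (SE 0.12, limma adjusted p = 0.151) and its interaction -0.51 (SE 0.16, adjusted p = 0.895). Gpx1, a peroxidase, stood at 4234 ± 619 in controls and 2978 ± 810 in mutants on HFD (-0.53, limma adjusted p = 0.527). Selenok, of the endoplasmic reticulum, had the smallest p on chow (0.37, adjusted p = 0.804), and Scly, which recycles selenium from selenocysteine, for diet in mutants (-0.20, limma adjusted p = 0.736).

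Tsku, or tsukushi, a small leucine-rich proteoglycan that the liver releases in obesity and fatty liver, gave the largest differences of the 10 on HFD, and 1 library decided their test. It lies at chr7:98350668-98361328 on the minus strand. Controls on chow held 17.0, 19.6, 10.4 and 20.9 and mutants on chow 12.1, 7.44, 14.2 and 12.3. Controls on HFD held 14.1, 13.2, 19.1 and 20.2 and mutants on HFD 3.54, 55.8, 54.4 and 58.0. Mutants on HFD held both extremes of the 16 libraries: replicates 2, 3 and 4 were above every other library, and replicate 1 was below every other library. With all 16 libraries the difference was 0.80 (SE 0.61) for genotype on HFD and 1.31 (SE 0.61) for diet in mutants, with limma adjusted p of 0.668 and 0.723 and exact p of 0.571 and 0.143.

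Without Mutant_HFD replicate 1, Tsku was higher by 1.72 (SE 0.23) in mutants than in controls on HFD, and limma called it (adjusted p = 0.00207) as 1 of 141 genes among 12662. Diet in mutants then gave 2.22 (SE 0.23, limma adjusted p = 0.00168), with Tsku first by p and Adgrv1, an adhesion receptor named after its value was seen, the only other gene called. The interaction gave 2.23 (SE 0.32, adjusted p = 0.0665), again first by p. These signs were opposite to the sought pattern, and on chow the genotype difference was -0.51 (SE 0.61, limma adjusted p = 0.994). Each library was left out in turn, and the omission of Mutant_HFD replicate 1 is given because it removes the discordant Tsku value. The SE, the calls and the ranks without that library depend on this choice and are no separate support.

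Genotype and title series were nearly the same split on HFD, with 1 library of the other genotype in each series. In series 1 the only mutant, at 3.54, was below controls of 13.2 to 19.1, and in series 4 mutants of 54.4 to 58.0 were above the only control, at 20.2. With title series as a term the HFD difference was -0.21 (limma adjusted p = 0.9996). The control of series 4 was higher than the controls of series 1 by a small margin, 20.2 against at most 19.1. Without both libraries that stood among the other genotype the HFD difference was 1.81 (adjusted p = 0.000531), in a fit where 2694 genes passed. Weighting the libraries by their fit to the group means gave 1.60 on HFD in limma (adjusted p = 0.00564), where 3926 genes passed. Esr1 had the same grouping on HFD only, at 20.5 to 22.9 in Mutant_HFD replicates 2 to 4, 6.42 in replicate 1 and 6.14 to 8.09 in controls. On chow Esr1 stood at 19.6 and 17.0 in Mutant_Chow replicates 1 and 2, where Tsku was 12.1 and 7.44. In Control_Chow replicate 4 Esr1 stood at 15.9 and Tsku at 20.9. The part of Esr1 level in Tsku was not tested.

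**Figure D3:**
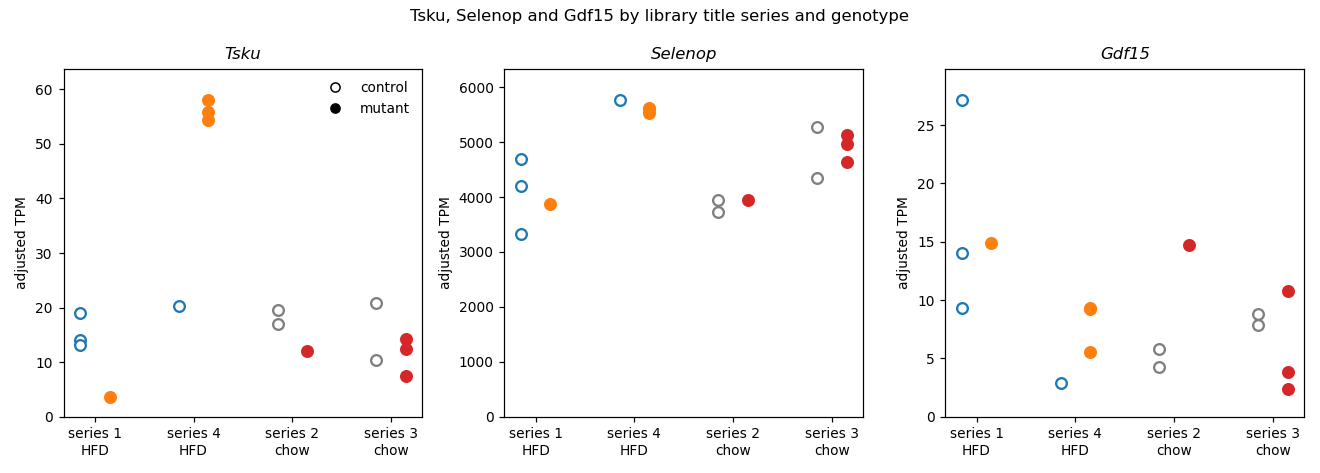
Levels of Tsku, Selenop and Gdf15 (adjusted TPM, linear axes from 0) by the series of the library titles, with controls as open and mutants as filled circles. In Tsku the 3 mutants of series 4 (54.4 to 58.0) stand above the control of that series (20.2), while in Selenop mutants and the control of series 4 lie together (5530 to 5763).

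Fgl1, a fibrinogen-like protein that hepatocytes make in response to interleukin-6 and that binds the T cell receptor LAG3, had the largest difference on chow. It lies at chr8:41191434-41215156 on the minus strand. Controls on chow held 438, 448, 298 and 479, and mutants on chow held 1715, 2983, 508 and 502. Controls on HFD held 1483, 291, 367 and 305 and mutants on HFD 361, 522, 620 and 655. All 4 mutants on chow were above all 4 controls, 2 of them far above and 2 just above, and 1 control on HFD, replicate 1, stood far above its group. Genotype on chow gave 1.38 (SE 0.56), a 2.61-fold higher level, with a limma adjusted p of 0.804 and an exact permutation p of 0.0286. Fgl1 was the only hepatokine without overlap on chow, against 3.05% of all genes (1.95% higher), and on HFD no hepatokine lacked overlap, against 2.69%. Diet in mutants gave -1.02 (SE 0.56, limma adjusted p = 0.760) and the interaction -1.22 (SE 0.79, adjusted p = 0.895). Without Mutant_Chow replicate 2 alone the Fgl1 chow difference was 0.89 and the diet difference in mutants was -0.53, and without Control_HFD replicate 1 alone the interaction was -0.67.

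The 3 libraries highest in Fgl1 were the 3 highest in acute-phase genes, Mutant_Chow replicates 2 and 1 and Control_HFD replicate 1. Without them the Fgl1 difference on chow was 0.30 (SE 0.24, limma adjusted p = 1), diet in mutants was 0.06 and genotype on HFD was 0.72 (SE 0.21, adjusted p = 0.626). For Fetub the same omission gave 0.30 (SE 0.15) on chow and -0.13 in mutants by diet. Of those 3 libraries, 2 were also among the 3 highest in Fetub, and 2 were among the 3 lowest in Rbp4 and in Lect2. The part of acute-phase and neutrophil levels in the chow results was not tested.

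**Figure D4:**
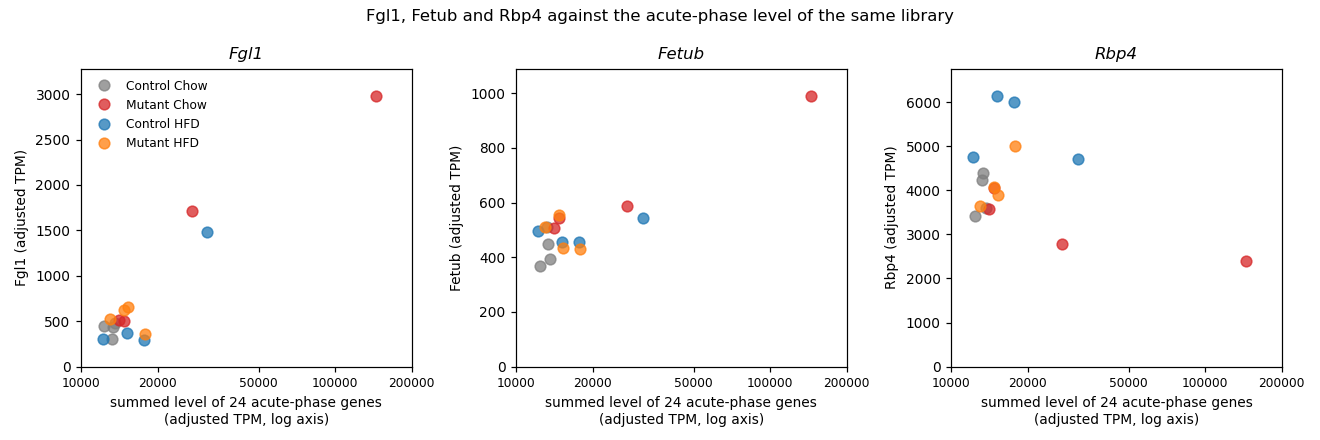
Levels of Fgl1, Fetub and Rbp4 (adjusted TPM, linear axes from 0) against the summed level of 24 acute-phase genes in the same library (adjusted TPM, log axis), 1 point per mouse, coloured by group. The library at 145116 is Mutant_Chow replicate 2, with the highest Fgl1 (2983), the highest Fetub (991) and the lowest Rbp4 (2391).

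All 24 acute-phase genes were higher by estimate in mutants on chow (median 1.11) and lower in mutants on HFD than on chow (median -0.99). Over all genes these medians were 0.02 and -0.01, and the share of all genes with each sign is not given. Of the 24, 12 and 10 had unadjusted p under 0.05 in limma, against 4.23% of all genes higher and 4.16% lower. None of the 24 was past the adjusted threshold. Both comparisons share the mutant chow libraries, 2 of which had the high summed levels. Mt2, a metallothionein, had the smallest p on chow, at 33.0 ± 16.7 in controls and 1664 ± 2598 in mutants (4.31, SE 0.94, limma adjusted p = 0.276). Socs3, the feedback inhibitor of interleukin-6 signalling, had it for genotype on HFD (-1.19, adjusted p = 0.560), diet in mutants (-1.36, limma adjusted p = 0.623) and the interaction (-2.12, adjusted p = 0.895), and Serpina3n, a protease inhibitor, for diet in controls (0.56, limma adjusted p = 0.433). Ahsg, which is known to fall in the acute phase, was at its highest, 10066, in the library with the highest acute-phase level. Of 13 other genes that fall in the acute phase, none passed either, and Itih1, a hyaluronan-binding protein, had the smallest p on chow (0.35, adjusted p = 0.804) and in mutants by diet (-0.36, limma adjusted p = 0.687). The smallest p was that of Serpina6, the corticosteroid carrier, for genotype on HFD (0.57, adjusted p = 0.590), of the clotting factor F12 for diet in controls (0.39, limma adjusted p = 0.301) and of the iron carrier Trf for the interaction (-0.92, adjusted p = 0.895).

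Gpld1, a phospholipase that releases proteins from their lipid anchor and is raised in plasma by exercise, differed little between any groups. It lies at chr13:24943152-24992501 on the plus strand and overlaps Mrs2 on the other strand. Chow values were 78.2, 78.6, 82.2 and 93.8 in controls and 71.4, 80.2, 74.3 and 90.6 in mutants, and HFD values were 68.5, 67.3, 74.1 and 87.1 in controls and 62.1, 66.9, 77.1 and 73.4 in mutants. The groups overlapped in every comparison, with HFD means below chow means in both genotypes. The diet differences were -0.17 in controls and -0.18 in mutants (SE 0.11 each, limma adjusted p = 0.544 and 0.818), and the genotype differences were -0.07 on chow and -0.08 on HFD.

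Receptors and carriers of the hepatokines were followed as a list of 20, of which 15 were tested and none passed. Klb, the beta-klotho coreceptor of Fgf21, stood at 13.7 ± 3.57 in controls and 19.3 ± 5.17 in mutants on HFD (0.46, SE 0.21, limma adjusted p = 0.575). Lag3, a receptor of Fgl1, stood at 1.38 ± 0.515 in controls and 0.635 ± 0.292 in mutants on chow (-0.54, SE 0.18, limma adjusted p = 0.729). These groups did not overlap, against 3.05% of all genes for genotype on chow. Lag3 was named for the smallest p of its list, and its values lie near the filter value of 1. Asgr1, the asialoglycoprotein receptor, had the smallest p for diet in controls (0.38, adjusted p = 0.216), Stra6l, a receptor of retinol-loaded Rbp4, for diet in mutants (-0.36, limma adjusted p = 0.763) and Fgfr2 for the interaction (-0.45, adjusted p = 0.895).

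Another 34 secreted liver factors with actions on bone or metabolism were all tested, and none passed the adjusted threshold in any comparison. Enho, which encodes the peptide adropin, averaged 22.1 ± 3.72 in controls and 54.7 ± 30.7 in mutants on chow (1.09, SE 0.33, limma adjusted p = 0.644). Igfbp1, which binds insulin-like growth factors, averaged 77.6 ± 39.1 in mutants on chow and 20.2 ± 6.03 in mutants on HFD (-1.81, SE 0.59, limma adjusted p = 0.623). In controls it averaged 47.0 ± 29.2 on chow and 19.0 ± 10.9 on HFD. The mutant groups did not overlap, against 3.53% of all genes for diet in mutants, and Igfbp1 was named for the smallest p of its list. Tnfrsf11b, or osteoprotegerin, which blocks osteoclast formation, averaged 2.48 ± 1.11 in controls and 4.14 ± 0.635 in mutants on HFD (0.60, SE 0.23, limma adjusted p = 0.558). Hamp, or hepcidin, had the smallest p for diet in controls (0.73, adjusted p = 0.215) and Ambp, an alpha-1-microglobulin precursor, for the interaction (-0.61, limma adjusted p = 0.895).

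The hepatokines did not share 1 profile over the libraries. As a description over 16 libraries that share groups and title series, Pearson's r on the log2 scale was highest between Fgl1 and Fetub (0.75) and lowest between Fgl1 and Rbp4 (-0.70), and the neighbours Ahsg and Fetub had 0.58. Among all tested genes outside the 10, the most alike to Fgl1 were Itih4 (0.93) and Prtn3 (0.93), and to Fetub Isyna1 (0.91) and Itih4 (0.90). Rbp4 was most like Abcb6 (0.96) and Dhrs4 (0.95), and Selenop most like Cyp39a1 (0.94) and Tfdp2 (0.93). Tsku was most like Fam102a (0.92) and Fads2 (0.87), and Lect2 most like Dhrs1 (0.90) and Smim27 (0.86). Weaker best matches were those of Gpld1 with H2-T-ps (0.88) and Fv1 (0.83), Gdf15 with Eva1b (0.87) and Jun (0.82), Ahsg with 2310030G06Rik (0.86) and Foxa3 (0.84), and Fgf21 with Ddb1 (0.82) and Rad51b (0.82).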

How the data were processed

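Total RNA of 16 livers was converted to Illumina libraries (NEBNext chemistry) and read on a NovaSeq instrument. Per the methods and labels, the authors assigned reads to mm10 transcripts with kallisto in gene mode and tested genes with sleuth, whose versions are not given in the sources used here. The deposited values are a signal per gene (TPM adjusted between libraries by size factors, a unit inferred from unequal column totals), and reads of overlapping or near-identical genes may be shared. Precision rests on the spread between 4 mice.

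Groups came from the genotype and treatment labels. limma 3.58.1 in R 4.3.3 was run on log2(value + 1) for genes at 1 or more in at least 4 libraries, with all 16 libraries in 1 fit of 4 group means, a mean-variance trend and Benjamini-Hochberg adjustment over 12704 genes. The script was tested on simulated data. Exact permutation tests used all 70 splits. The members and the 8 gene lists were chosen with earlier results of these data known. Named were all members, Esr1, in each list and comparison the gene with the smallest p where none passed, and the 2 genes most correlated with each member. A gene that this rule names is not reported here. Positions are from GENCODE M21 and promoters from RefSeq (GRCm38.p6), matched by symbol for 9 of 10. Alternatives covered scaling, filter, pseudocount, weights, trend, title series, groups fitted and omitted libraries.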

Additional observations from a re-analysis of the deposited data

Results flagged for a closer look

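Within each group of 4, a library was picked out when its gap to the nearest of the other 3, as a share of the group's range, exceeded Dixon's critical ratio at 95%. This held in 7 of 40 combinations of hepatokine and group. The ratio's rate of about 1 in 20 holds for independent normal values. Here the values were not log-transformed and the combinations share the same 16 libraries, so no excess can be read from the count. Tsku in Mutant_HFD replicate 1 was the lowest of its group at 3.54 (ratio 0.935), and Selenop in the same library was the lowest at 3881 (0.952). Fgl1 in Control_HFD replicate 1 was the highest at 1483 (0.936), and Fetub in Mutant_Chow replicate 2 was the highest at 991 (0.835), and both libraries are among the 3 with the highest acute-phase level. Control_HFD replicate 4 was the lowest of its group in Ahsg at 6285 (0.858) and in Lect2 at 231.6 (0.915). Lect2 was also lowest in Mutant_HFD replicate 4, at 257 (0.884).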

How the results depend on the processing

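No paired analysis was possible because the labels give no replicate numbers. Counts of genes called by limma moved over 1.5 times as follows, and the cause was not tested. For genotype on chow (3 genes) they were 1 with a filter at 5, a pseudocount of 5 or title series as a term, 6 with library weights or only the compared groups, and 12 without the 2 HFD libraries placed among the other genotype. For genotype on HFD (2) they were 3926 with weights, 1 with only the compared groups and 2694 without those 2 libraries. Diet in controls (0, with 1641 at unadjusted p under 0.05) gave 2 with equal library totals, 2264 with weights, 4 with only the compared groups and 1897 without the 2 libraries. Diet in mutants (0, with 872) gave 9, 1 and 3 under the last 3 of these, and the interaction (0, with 535) gave 921 without the 2 libraries. Leaving out 1 library gave 1 to 14, 2 to 141 (141 without Mutant_HFD replicate 1), 0 to 928 (928 without Control_HFD replicate 4), 0 to 2 and 0 to 0. The omissions of 2 or 3 libraries were chosen after seeing the data. The library weights were lowest in the 2 HFD libraries placed among the other genotype, so weighting and their omission are related settings.

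Signs turned for estimates near 0 and for some large ones. The large ones had main estimates of 0.80 (Tsku on HFD), -1.02 (Fgl1 by diet in mutants) and -1.22 (Fgl1 interaction). Scaling to equal library totals gave an interaction of 0.0092 for Gdf15, 0.097 for Rbp4 and 0.15 for Gpld1, 0.062 for Fetub on HFD and -0.13 for Selenop by diet in controls. It moved the median of all genes by -0.16 in that comparison and by 0.15 in the interaction. Totals without the 20 most abundant genes gave interactions of 0.025 (Fgf21), 0.035 (Gdf15), 0.12 (Rbp4) and 0.18 (Gpld1), HFD values of 0.076 (Fetub) and 0.012 (Gpld1), -0.083 for Selenop by diet in controls and 0.015 for Ahsg by diet in mutants, with shifts of all genes of -0.11 for diet in controls and 0.17 for the interaction. Median-of-ratios gave -0.014 for Fgf21 on HFD and 0.011 for Tsku by diet in controls. A pseudocount of 5 gave -0.042 (Fgf21) and 0.046 (Gdf15) on chow and 0.048 for the Fgf21 interaction. Weights gave HFD values of -0.18 (Fgf21), 0.068 (Fetub) and 0.029 (Gpld1), diet in controls of 0.013 (Ahsg) and -0.045 (Selenop), and interactions of -0.042 (Ahsg) and 0.078 (Gpld1). Title series as a term gave 0.050 for Gdf15 on chow, HFD values of 0.57 (Gdf15), -0.051 (Selenop) and -0.21 (Tsku), and interactions of 0.52 (Gdf15), 0.11 (Rbp4) and -0.087 (Selenop). Without the 3 acute-phase libraries, HFD gave -0.062 (Fgf21) and 0.031 (Fetub), chow 0.012 (Lect2), diet in controls 0.061 (Tsku) and -0.36 (Fgl1), diet in mutants 0.058 (Fgl1), and interactions 0.69 (Gdf15), -0.089 (Selenop) and 0.41 (Fgl1). Without the 2 HFD libraries, HFD gave -0.12 (Fgf21), 0.041 (Fetub), -0.012 (Lect2) and 0.048 (Gpld1), diet in controls 0.029 (Ahsg) and -0.086 (Selenop), and interactions -0.10 (Ahsg) and 0.12 (Gpld1).

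Leaving out 1 library gave chow ranges of -0.41 to 0.88 (Fgf21) and -0.38 to 0.37 (Gdf15), and HFD ranges of -0.13 to 0.15 (Fgf21), -0.67 to 0.28 (Gdf15), -0.091 to 0.031 (Fetub) and -0.064 to 0.72 (Fgl1). Diet in controls ranged from -0.12 to 0.029 (Ahsg), -0.086 to 0.18 (Selenop), -0.21 to 0.10 (Tsku) and -0.36 to 0.43 (Fgl1), and Ahsg by diet in mutants from -0.090 to 0.021. Interactions ranged from -0.87 to 0.43 (Fgf21), -0.66 to 0.29 (Gdf15), -0.080 to 0.078 (Ahsg), -0.20 to 0.056 (Rbp4), -0.043 to 0.22 (Selenop) and -0.069 to 0.068 (Gpld1). Of 800 such values 53 changed sign, as did 49 of 620 under the other settings. Depth is unknown, so counting error could not be given for the scarce Fgf21 and Gdf15.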
